A study of Mus musculus with 22 samples.

Results

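Tuft cell marker genes were followed through ileum and colon of SIRT1 iKO mice and their flox controls; SIRT1 is an NAD-dependent deacetylase. The set held 9 genes (Dclk1, Trpm5, Pou2f3, Ptgs1, Gnat3, Alox5ap, Alox5, Gfi1b and Avil), and their probes were those whose gene name on the array equals a member, with the older name Dcamkl1 taken for Dclk1. By that rule 8 of the 9 genes had a probe, 14 probes in all among 41174 non-control probes under 27671 gene names, and no probe on the array carries the name Gnat3. Dclk1 was measured by 5 probes, Alox5 by 3 and each other gene by 1, and the brightest probe stands for the gene unless another is named.

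The study hybridised total RNA of whole ileum or colon from male C57BL/6 mice on chow to single-colour arrays, 22 in all, 1 per sample. The groups were young SIRT1 iKO ileum and young flox ileum (6 to 8 weeks, n = 4 each), aged SIRT1 iKO ileum (24 months, n = 4) and aged flox ileum (n = 3), and aged SIRT1 iKO colon (n = 4) and aged flox colon (n = 3). Flox mice are the controls at both ages and in both tissues. The title speaks of intestinal SIRT1, and the driver of the deletion is not given in the sources used here, and they do not say if the 2 tissues were taken from shared aged animals.

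Tuft cells are rare chemosensory cells of the gut epithelium, with a tuft of long microvilli and a taste-like signalling chain. Receptors on their surface act through the gustducin subunit Gnat3 and phospholipase C to open the cation channel Trpm5, and the cells answer parasites and succinate by releasing interleukin 25, acetylcholine and eicosanoids. In mice the POU-domain factor Pou2f3 is needed for them to form, and Gfi1b, a zinc-finger repressor also used by red cell and platelet precursors, marks them. Dclk1, a microtubule-binding kinase, is their most used marker, and Avil encodes advillin, an actin-bundling protein of the villin family. Dclk1 and Avil are also known from neurons, Alox5 and Alox5ap from white blood cells, and Ptgs1 from endothelium and platelets.

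The promoters of Avil, Trpm5 and Alox5 are shown because these genes varied together from array to array, as described below, and because 1 of the 3 holds a word that POU factors are known to bind. Each sequence gives the 250 bases before the RefSeq start in GRCm38.p6, 5′ to 3′ on the gene's strand, and capitals mark ATGCAAA or its reverse complement TTTGCAT, which is most of the octamer that the OCT family binds. They lie at chr10:127000459-127000708 (plus strand), chr7:143094643-143094892 (minus strand) and chr6:116461179-116461428 (minus strand).
Avil: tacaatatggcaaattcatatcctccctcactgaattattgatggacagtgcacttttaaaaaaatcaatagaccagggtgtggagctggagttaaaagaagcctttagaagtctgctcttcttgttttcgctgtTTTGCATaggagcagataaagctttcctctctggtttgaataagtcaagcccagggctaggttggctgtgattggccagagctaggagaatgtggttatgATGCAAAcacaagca
Trpm5: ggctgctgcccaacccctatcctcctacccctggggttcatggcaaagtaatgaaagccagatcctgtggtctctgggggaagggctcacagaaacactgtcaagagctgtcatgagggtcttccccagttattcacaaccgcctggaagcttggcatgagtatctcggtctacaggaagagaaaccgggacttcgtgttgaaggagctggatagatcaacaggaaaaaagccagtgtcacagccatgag
Alox5: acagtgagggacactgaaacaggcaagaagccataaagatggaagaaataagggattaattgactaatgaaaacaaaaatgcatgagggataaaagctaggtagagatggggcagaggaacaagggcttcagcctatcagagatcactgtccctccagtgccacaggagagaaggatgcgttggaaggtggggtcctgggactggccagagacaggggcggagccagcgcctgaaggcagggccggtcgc

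Avil held ATGCAAA starting 15 bases before its start and TTTGCAT starting 115 bases before it. RefSeq promoter entries (250 bases before to 50 after a start, both strands searched) existed for 7 of the 9 genes, and only Avil among them held either word. Of all 32851 promoters listed there, 4.63% held one, and the full octamer ATGCAAAT, which overlaps ATGCAAA, stood in 1.74% of them and in none of the 7 genes. The Avil start used here lies inside the gene's listed span, which begins at chr10:127000065, so the words do not stand before the whole gene. These matches describe the letters in those windows only.

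The single probe of Pou2f3 and that of Avil both cross introns in the array's design, at chr9:43081238-43110753 and chr10:126513963-126514487 of the older mm7 assembly, so they read spliced RNA. Both are printed because Pou2f3 was the member at the edge of detection and Avil, with the same kind of probe, was detected on every array. Dclk1 probes with spans of 70146 and 16643 bases cross introns too. They were well above background on only 8 and 7 arrays, every colon array included. The Dclk1 probes that lie within 60 bases were well above background on 22, 22 and 11 arrays. Whether the kind of probe bears on the missing Pou2f3 signal in ileum was not tested.
Pou2f3 probe: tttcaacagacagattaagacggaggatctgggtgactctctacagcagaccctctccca
Avil probe: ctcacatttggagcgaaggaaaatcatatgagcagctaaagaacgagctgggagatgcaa

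Levels below are log2 of the scanner's processed signal minus the log2 75th percentile of that array, so a level of 0 is as bright as that percentile, and they are compared within a probe only. Between 49.8% and 61.5% of the spots of an ileum array and between 70.4% and 79.7% of those of a colon array were well above background. Ileum and colon were run on separate sets of 4 slides, so tissue and array run cannot be told apart. Within the ileum slides young samples held positions 1 and 2 and aged samples positions 3 and 4, and in young ileum and in colon each genotype kept 1 position, so position and group cannot be told apart there. Sirt1 itself averaged 0.70 ± 0.04 in young iKO ileum and 0.92 ± 0.24 in young flox ileum, 0.32 ± 0.04 in aged iKO ileum and 0.82 ± 0.25 in aged flox ileum, and 0.50 ± 0.15 in iKO colon and 0.78 ± 0.02 in flox colon (SD). Its differences were -0.21, -0.50 and -0.28 with adjusted p of 0.999, 0.177 and 0.623 (limma, Benjamini-Hochberg over all genes tested), and its other, dimmer probe averaged -0.28 ± 0.19 and -0.28 ± 0.20 in young iKO and young flox ileum, -0.82 ± 0.08 and -0.72 ± 0.27 in aged iKO and aged flox ileum, and -0.77 ± 0.21 and -0.64 ± 0.14 in iKO and flox colon. Whether either probe lies in the deleted part is not given in the sources used here.

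Some arrays stood apart in genes that mark the 2 tissues. The ileal bile acid carrier gene Fabp6 was at -3.17 or lower on 6 of the 7 colon arrays and at -2.55 on the other, against 3.20 or higher on every ileum array, so it separated the arrays as they are labelled. The colon genes Car1 and Aqp8 were also high on aged iKO ileum replicate 2 (7.79 and 5.57) and aged flox ileum replicate 1 (8.18 and 6.55), near the colon arrays, where Car1 was 8.17 to 8.74 and Aqp8 6.27 to 8.09. Car1 was at most -2.14 on the other 3 aged iKO ileum arrays and at most -2.51 on the other 2 aged flox ileum arrays, and in young ileum it reached 1.26 on iKO replicate 2 and 2.63 on flox replicate 2. The ileal gene Reg3b reached 7.55 on iKO colon replicate 2, against -0.04 to 5.49 on the other iKO colon arrays. Comparisons that use the aged ileum were therefore also fitted without both of those ileum arrays, an alternative chosen after seeing the data, and the values are given beside the results they change.

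The tuft cell genes were detected in every group, with Pou2f3 as the exception. Dclk1, Avil, Trpm5, Alox5, Alox5ap and Ptgs1 were well above background on all 22 arrays, and Gfi1b on 19. Pou2f3 was well above background on none of the 15 ileum arrays and on 5 of the 7 colon arrays, 2 of 4 iKO and 3 of 3 flox. The detection limit was itself lower in colon, where the dimmest spot well above background lay between -6.56 and -5.87, against -4.72 to -3.34 in ileum.

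**Figure D1:**
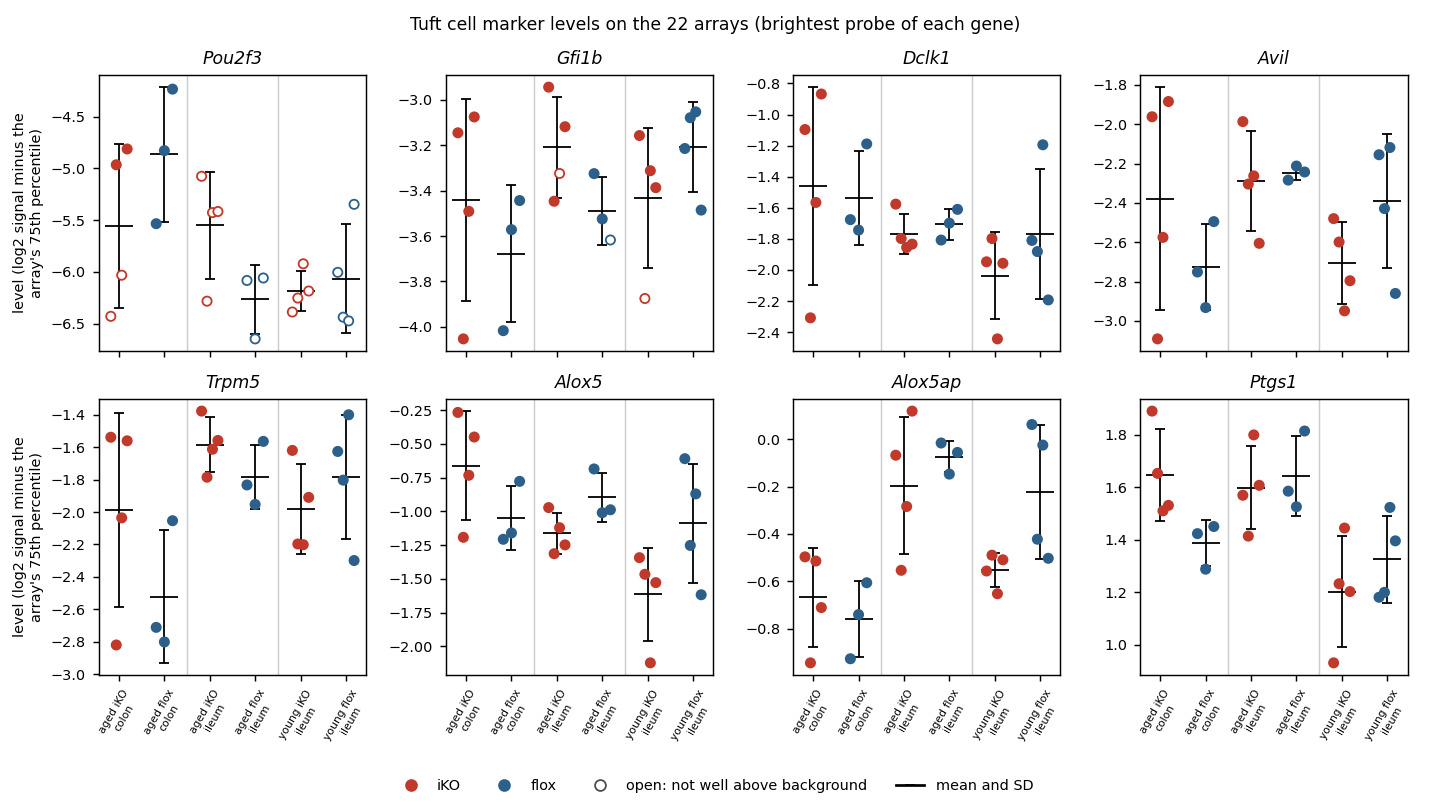
Level of each of the 8 measured tuft cell genes (log2 signal minus the array's 75th percentile, vertical axis, a scale per panel) on each array of the 6 groups, iKO in red and flox in blue; open points are not well above background, and black bars give the group mean and SD. All Pou2f3 points in ileum are open, and the groups overlap in most panels.

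The order of the 6 group means differed from gene to gene. The Dclk1 probe was highest in iKO colon (-1.46 ± 0.64) and lowest in young iKO ileum (-2.04 ± 0.28), and Ptgs1 had the same ends, at 1.65 ± 0.17 and 1.20 ± 0.21. Alox5 also ran between those groups, at -0.66 ± 0.40 and -1.62 ± 0.35. Avil, Trpm5, Alox5ap and Gfi1b were all lowest in flox colon, where they averaged -2.73 ± 0.22, -2.52 ± 0.41, -0.76 ± 0.16 and -3.68 ± 0.30. Their highest means fell in aged flox ileum for Avil (-2.25 ± 0.04) and Alox5ap (-0.07 ± 0.07), in aged iKO ileum for Trpm5 (-1.58 ± 0.17) and in young flox ileum for Gfi1b (-3.21 ± 0.20). Of the 40 neighbouring pairs in these 8 orders, 39 had overlapping ranges, and the exception was Alox5, whose aged iKO ileum lay above young iKO ileum. In 5 of the 8 genes the widest spread within a group was that of iKO colon, with an SD of 0.64 for Dclk1, 0.57 for Avil, 0.60 for Trpm5, 0.45 for Gfi1b and 0.79 for Pou2f3.

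In young ileum all 7 tuft cell genes tested were lower on average in iKO than in flox mice, and none passed the test. Their median difference was -0.27, against -0.01 over all genes, and 0.0452% of the 15489 genes tested passed at an adjusted p under 0.05. Alox5, the 5-lipoxygenase that starts leukotriene synthesis, had the largest difference. Its levels were -1.34, -1.47, -2.12 and -1.53 in iKO ileum, against -0.61, -1.25, -0.87 and -1.62 in flox ileum. The lowest flox array lay within the iKO range, and the other 3 flox arrays lay above all 4 iKO arrays. The difference was -0.53 ± 0.21 (SE, 95% interval -0.98 to -0.08, 1.44-fold lower), with an adjusted p of 0.999, and the other Alox5 probes gave -0.52 and -0.63.

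Alox5ap, the membrane protein that hands arachidonic acid to Alox5, lay between -0.65 and -0.49 in young iKO ileum, against -0.50 to 0.06 in young flox ileum. The 4 iKO arrays were close together and 2 of the flox arrays lay at their upper edge. Its difference was -0.33 ± 0.15 (95% interval -0.65 to -0.01, adjusted p 0.999). Alox5 and Alox5ap were the only members with an unadjusted p under 0.05 here, a threshold that 4.14% of all genes met. Dclk1 differed by -0.27 ± 0.18, Avil by -0.32 ± 0.17, Gfi1b by -0.23 ± 0.16, Trpm5 by -0.20 ± 0.18 and Ptgs1 by -0.12 ± 0.12. Set against each other on the same slide, iKO was lower for Alox5, Alox5ap and Avil on 4 of 4 slides, and the median over the 7 genes ran from -0.55 on slide 1 to -0.08 on slide 2. Enteroendocrine genes, markers of another rare epithelial lineage, leaned the same way (8 of 9 tested lower in iKO, median -0.40, none passing), and macrophage and granulocyte markers did not (5 of 11 lower, median 0.02, none passing). Their part in these differences was not tested. The wider list of tuft cell genes given below did not lean this way in young ileum, and most of its tested genes were higher in iKO.

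In aged ileum the members fell on both sides of 0. Of the 7 genes 5 were lower in iKO, with a median of -0.04 against 0.02 over all genes, and none passed, where 0.168% of all genes did. None passed without the 2 aged ileum arrays with high Car1 either, and there Alox5ap was at 0.02 and Gfi1b at 0.44 (adjusted p 0.976 and 0.457). Alox5 differed by -0.27 ± 0.22 and Alox5ap by -0.12 ± 0.16. Its other probes put Alox5 at 0.03 and 0.04, so the 3 probes did not share a sign in this comparison. Gfi1b had the largest positive difference, 0.28 ± 0.17, with iKO levels of -2.94, -3.45, -3.32 and -3.12, against -3.32, -3.52 and -3.62 in flox ileum, and Trpm5 followed with 0.20 ± 0.20. Intervals for Dclk1 (-0.49 to 0.37), Avil (-0.43 to 0.35) and Ptgs1 (-0.33 to 0.25) lay about evenly around 0, which does not show that the genotypes were alike. Only 1 slide held both aged genotypes, and there 5 of 7 members were lower in iKO, with a median of -0.10. That slide held 1 array of each genotype, and its iKO array was replicate 2, which had high Car1.

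In aged colon 7 of the 8 members tested were higher on average in iKO, with a median of 0.25 against -0.01 over all genes. None passed, where 0.112% of the 19589 genes tested did. Trpm5, the channel at the end of the taste chain, had levels of -1.54, -2.82, -2.04 and -1.56 in iKO colon, against -2.71, -2.80 and -2.05 in flox colon. The lowest of all 7 arrays was an iKO array and the highest 3 were iKO arrays too. Its difference was 0.53 ± 0.35 (95% interval -0.29 to 1.36, adjusted p 0.866).

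Alox5 differed by 0.39 ± 0.24 in colon, and its other probes gave 0.52 and 0.55. Avil differed by 0.35 ± 0.31, Gfi1b by 0.24 ± 0.27, Alox5ap by 0.09 ± 0.15 and Dclk1 by 0.08 ± 0.35. Ptgs1, the constitutive cyclooxygenase, was the 1 member whose groups did not overlap, as 8.25% of all genes did not in one direction or the other. Its levels were 1.89, 1.65, 1.51 and 1.53 in iKO colon, against 1.42, 1.29 and 1.45 in flox colon (difference 0.26 ± 0.12, adjusted p 0.754). Pou2f3 went the other way, at -6.43, -4.97, -6.03 and -4.81 in iKO colon and -5.53, -4.83 and -4.24 in flox colon. It differed by -0.69 ± 0.48 with an adjusted p of 0.876, passed the brightness filter through the flox group, and was not well above background on 2 iKO arrays.

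The colon result leaned on single slides. On slide 8 all 8 members were higher in iKO, with a median of 0.78, on slide 7 they were lower for 7 of 8, with a median of -0.15, and on slide 6 for 4 of 8. Trpm5 on these slides ranged from -0.02 to 1.15 and Dclk1 from -0.56 to 0.81. Replicate 1 of iKO colon stood on slide 5 with no flox array beside it. The iKO array on slide 7 was replicate 2, where Reg3b was high (7.55) and the members lay -0.40 from their group mean on average. Leaving out each colon array in turn gave 0.38 to 0.81 for Trpm5, 0.18 to 0.59 for Avil and 0.26 to 0.57 for Alox5. The high ends were those without iKO replicate 2, and none passed. Endothelial markers were lower in iKO colon for 7 of 7 genes (median -0.22) and neuron and glia markers for 10 of 11 (median -0.07), and none passed.

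**Figure D2:**
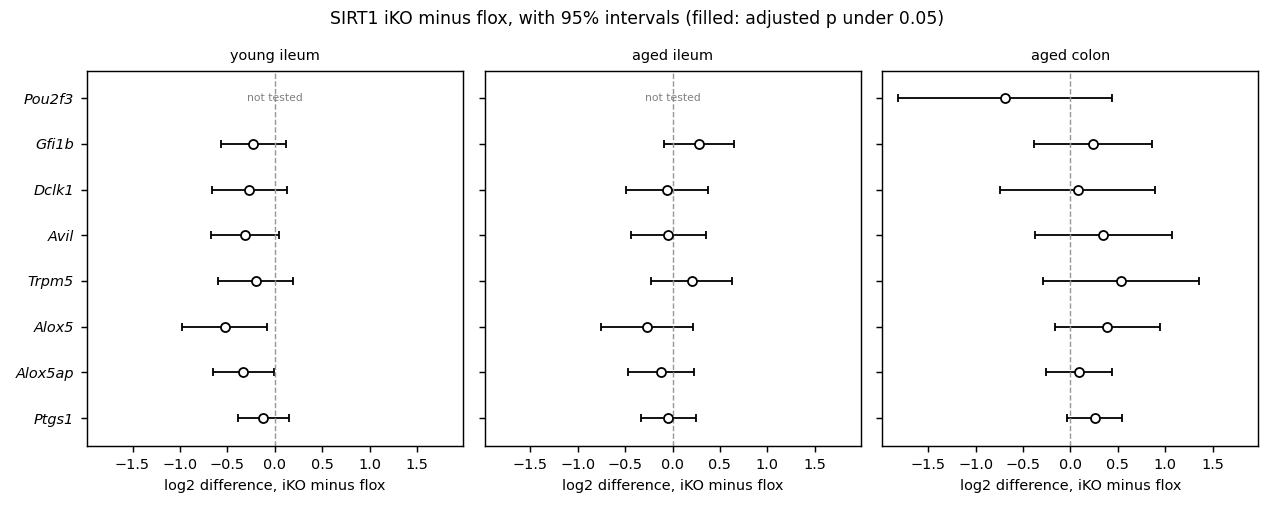
Difference of each tuft cell gene between SIRT1 iKO and flox mice (log2, horizontal axis) in young ileum, aged ileum and aged colon, with 95% intervals from limma; a filled point would mark an adjusted p under 0.05. No point is filled, all 7 young ileum points lie below 0, and 7 of 8 colon points lie above it.

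With age the members were higher on average in iKO ileum, for all 7 genes, with a median of 0.39 against -0.02 over all genes. None passed, where 10.7% of all genes did. Ptgs1 came nearest, at 1.57, 1.41, 1.80 and 1.61 in aged iKO ileum, against 0.93, 1.23, 1.44 and 1.20 in young iKO ileum. The lowest aged array fell just within the young range. Its difference was 0.39 ± 0.12 (95% interval 0.13 to 0.66, 1.31-fold, adjusted p 0.0588), and it passed with the replicate number as a block or a trended, robust variance, as given in the closing section. Without aged iKO ileum replicate 2 and aged flox ileum replicate 1 it was 0.46 (adjusted p 0.0650).

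Avil (0.42 ± 0.17), Alox5 (0.45 ± 0.21), Trpm5 (0.40 ± 0.18) and Alox5ap (0.36 ± 0.15) also had unadjusted p under 0.05 in iKO ileum, which 27.7% of all genes had. Their adjusted p lay between 0.129 and 0.180. Alox5 in aged iKO ileum, between -1.31 and -0.97, lay above all 4 young iKO arrays, between -2.12 and -1.34, a separation that 18.7% of all genes showed in one direction or the other. In flox ileum 5 of 7 members were higher with age, with a median of 0.14 against -0.02 over all genes, and none passed, where 8.54% of all genes did. Ptgs1 had the largest difference in flox ileum, 0.32 ± 0.13 (adjusted p 0.154). Its levels were 1.59, 1.53 and 1.81 in aged flox ileum, against 1.18, 1.20, 1.52 and 1.40 in young flox ileum. These ranges did not overlap, as those of 24.6% of all genes did not. The 2 age comparisons use different mice, but the difference between them was tested and no member passed: all 7 interaction terms were positive (median 0.26), the largest was that of Gfi1b (0.51 ± 0.23, adjusted p 1.00), and no gene of the array passed with limma, 0% of 15489, where 2.52% had an unadjusted p under 0.05 and 1 gene passed after normexp background correction.

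Endothelial markers moved with age beside Ptgs1, where 10.7% of all genes passed in iKO and 8.54% in flox ileum. Of 7 such genes tested in iKO ileum 7 were higher in aged mice (median 0.43), and Tek passed, while in flox ileum 7 of 7 were higher (median 0.59), and Pecam1, Kdr and Lyve1 passed. The summed level of the list ran from 2.77 to 4.25 in aged iKO and from 3.72 to 4.62 in aged flox ileum, against 2.01 to 3.44 in young iKO and 2.44 to 3.29 in young flox ileum, in units of the array's 75th percentile, with every marker well above background on some array. Macrophage and granulocyte markers were also higher on average with age (medians 0.42 in iKO and 0.45 in flox ileum), with Csf1r, Cd68 and Mpeg1 passing in iKO and Cd68 and Mpeg1 in flox ileum, of 11 tested in each. The part of these cells in the differences of Ptgs1, Alox5 and Alox5ap was not tested. In these whole-tissue samples fewer cells of a type and less RNA per cell cannot be told apart.

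Between tissues Alox5ap was lower in colon than in ileum in both genotypes, and it was the 1 member that passed in both. Its levels were -0.93, -0.74 and -0.61 in flox colon, against -0.02, -0.15 and -0.06 in aged flox ileum, with no overlap, a separation shown by 45.5% of all genes. The difference was -0.68 ± 0.17 (1.61-fold lower, adjusted p 0.00931, where 32.9% of the 19641 genes tested passed). In iKO mice Alox5ap had -0.50, -0.94, -0.51 and -0.71 in colon, against -0.07, -0.55, -0.28 and 0.12 in ileum. Those ranges met at their edges, and the difference was -0.47 ± 0.15 (1.38-fold lower, adjusted p 0.0221, where 43.6% of all genes passed). Its iKO call was lost without ileum replicate 1 or 4 or colon replicate 2 (differences of -0.43, -0.36 and -0.38, adjusted p 0.0584, 0.0675 and 0.0669). Without both ileum arrays with high Car1 it passed in each genotype, at -0.59 in iKO (adjusted p 0.00791) and -0.66 in flox mice (adjusted p 0.0152).

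Alox5 differed from its partner. In iKO mice it was -0.27, -1.19, -0.73 and -0.45 in colon, against -0.97, -1.31, -1.12 and -1.25 in ileum, and 3 of the colon arrays lay above all ileum arrays. The difference of 0.50 ± 0.18 (1.42-fold higher) passed with an adjusted p of 0.0429, but the other Alox5 probes did not, with 0.33 (adjusted p 0.166) and 0.53 (adjusted p 0.106). Leaving out ileum replicate 2, 3 or 4 or colon replicate 1, 3 or 4 also lost the call, with differences of 0.37 to 0.53 and adjusted p of 0.0671 to 0.123, and without both ileum arrays with high Car1 it was 0.45 (adjusted p 0.101). In flox mice it was -0.15 ± 0.21 (adjusted p 0.615). The difference between the genotypes in this tissue contrast was 0.66 ± 0.28, which missed the threshold with an adjusted p of 0.814, where 0.0356% of all genes passed.

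Trpm5, Avil and Ptgs1 levels in flox colon lay below those in flox ileum without overlap and did not pass. The ranges of 45.5% of all genes did not overlap there, in one direction or the other. Trpm5 and Avil differed by -0.74 ± 0.30 (adjusted p 0.0814) and -0.48 ± 0.27 (adjusted p 0.198). In iKO mice they differed by -0.41 ± 0.26 and -0.09 ± 0.24. Dclk1 leaned to colon, by 0.17 ± 0.29 in flox and 0.31 ± 0.25 in iKO mice, and neither passed. Its 3 dimmer probes were well above background on all 7 colon arrays and on few ileum arrays. Averaged over all 5 probes, these dim ones included, the fit gave Dclk1 0.68 in iKO (adjusted p 0.0111) and 0.68 in flox mice (adjusted p 0.0297). These are not read as calls, because the dim probes were mostly not above background in ileum. The other Dclk1 probe detected on all 22 arrays did not pass, with 0.37 in iKO (adjusted p 0.261) and 0.30 in flox mice (adjusted p 0.472). The brightest probe passed in iKO mice without colon replicate 2, at 0.59. Pou2f3 had means of -4.87 in flox colon and -6.26 in aged flox ileum. The fit's adjusted p of 0.0363 is not read as a call and no fold is given, because its ileum spots were not above background on any array and the colon mean lay under the detection limit of the ileum arrays, -4.34. That p ran up to 0.438 over 14 alternatives, of which 8 stayed under the threshold. Ptgs1 did not pass in either genotype, with -0.25 ± 0.13 in flox and 0.05 ± 0.11 in iKO mice.

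**Figure D3:**
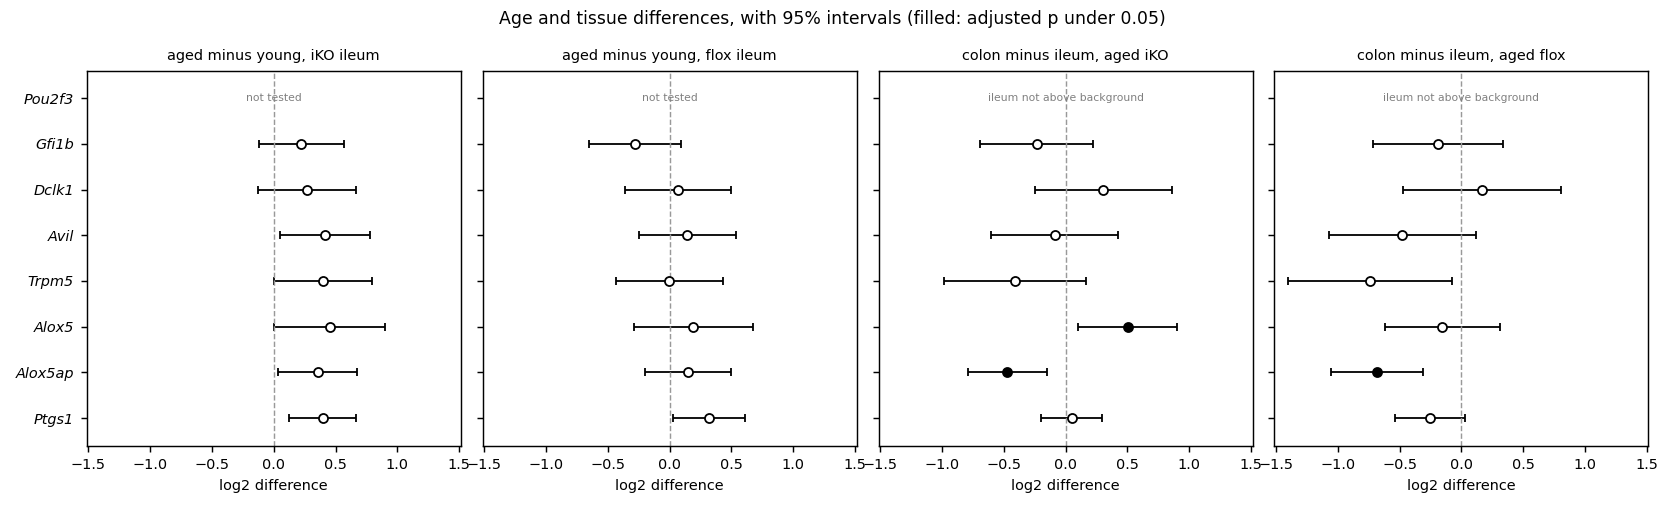
Differences of the tuft cell genes with age (aged minus young, in iKO and flox ileum) and between tissues (colon minus ileum, in aged iKO and flox mice), log2 with 95% intervals on the horizontal axis; filled points have an adjusted p under 0.05. Filled points are Alox5ap in both tissue panels and Alox5 in the iKO tissue panel; Pou2f3 is not drawn where its ileum spots were not above background.

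Markers of other cells also differed between the tissues, where 43.6% of all genes passed in iKO and 32.9% in flox mice. Of 12 macrophage and granulocyte genes tested, which include genes of cells that use Alox5 and Alox5ap, 11 were lower in colon in each genotype (median -1.14 in iKO and -1.0 in flox mice), and 10 passed as lower in iKO and 8 in flox mice. The summed level of the 13 on the array was 51.7 to 79.7 in iKO colon against 483 to 561 in aged iKO ileum, and 58.4 to 74.0 in flox colon against 424 to 563 in aged flox ileum, most of it from lysozyme genes that Paneth cells also express. Neuron and glia markers, 11 tested, were mostly higher in colon (median 0.63 in iKO with 6 passing as higher and 1 as lower, 0.51 in flox with 2 passing as higher), with summed levels of 7.61 to 10.8 in iKO colon against 5.41 to 8.41 in aged iKO ileum and 7.37 to 12.5 in flox colon against 6.04 to 8.20 in aged flox ileum. Their part in the differences of Alox5ap and Dclk1 was not tested. The ileal genes Fabp6, Slc10a2 and Reg3b passed as lower in colon in both genotypes, with a summed level of 2.22 to 190.8 in iKO colon against 329 to 453 in aged iKO ileum, and 9.48 to 33.2 in flox colon against 397 to 399 in aged flox ileum. The list of Car1, Aqp8 and Ang4, set up as a colon check, summed to 454 to 691 in iKO colon against 50.4 to 315 in aged iKO ileum. In flox mice it summed to 465 to 706 in colon against 39.1 to 420 in aged ileum. On the aged ileum arrays with low Car1 and Aqp8 nearly all of this sum was Ang4, so it does not measure colon genes alone. Car1 and Aqp8 passed as higher in colon in iKO mice, and none of the 3 did in flox mice, where Ang4 passed as lower by -2.83, with the ileum arrays that stood apart included.

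A wider list of 32 tuft cell genes, 29 of them on the array, showed no genotype call either. In young ileum 10 of 24 tested were lower in iKO (median 0.13), in aged ileum 8 of 24 (median 0.10) and in colon 8 of 28 (median 0.20). The smallest p in colon belonged to Il17rb, a subunit of the interleukin 25 receptor, at 0.77 ± 0.23 (adjusted p 0.479). Tslp, Plcg2 and Lrmp followed it at -0.56, 0.49 and -0.67, with adjusted p of 0.583, 0.583 and 0.654. With age 4 of 24 genes of this list passed in each genotype, where 10.7% of all genes passed in iKO and 8.54% in flox ileum, and they were the same 4. Sh2d7, an SH2 adaptor, was lower in aged ileum by -1.41 ± 0.30 in iKO (adjusted p 0.0138) and -1.94 ± 0.33 in flox mice (adjusted p 0.00481), and Hmx3, a homeobox factor, by -1.44 ± 0.30 (adjusted p 0.0113) and -1.19 ± 0.32 (adjusted p 0.0377). Sox9 and Tmem176a, neither of them restricted to tuft cells, were higher in aged ileum, by 0.43 and 0.43 in iKO and 0.47 and 0.49 in flox mice.

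The enzymes around Alox5, Alox5ap and Ptgs1 gave no genotype call, and their calls between tissues were about as frequent as over all genes. Of 23 eicosanoid synthesis genes on the array 18 were tested in ileum and 22 in colon, and none passed between genotypes (median -0.12 in young ileum, -0.05 in aged ileum and 0.01 in colon). Ltc4s, which makes leukotriene C4 from the product of Alox5, differed by -0.34 ± 0.15 in young ileum (adjusted p 0.999), -0.36 ± 0.16 in aged ileum (adjusted p 0.405) and 0.47 ± 0.19 in colon (adjusted p 0.667). Between colon and ileum 11 of 22 passed in iKO mice, 7 higher and 4 lower, and 8 of 22 in flox mice, 3 higher and 5 lower, where 43.6% and 32.9% of all genes passed in iKO and flox mice; the list holds Alox5, Alox5ap and Ptgs1, and these counts take in their own calls. Lta4h, which makes leukotriene B4, and its receptor Ltb4r1 were lower in colon, by -0.99 and -1.17 in iKO and -1.12 and -1.56 in flox mice. The prostacyclin synthase Ptgis and the phospholipase Pla2g4a were higher in colon, by 1.23 and 0.81 in iKO and 0.95 and 0.80 in flox mice. The taste chain beside Trpm5 gave no genotype call among 8 genes tested in ileum and 10 in colon, and Plcb2 and Gnb1 were lower in colon, by -1.16 and -1.16 in iKO and -1.05 and -0.98 in flox mice.

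Epithelial genes known to answer type 2 cytokines, the response that tuft cells set off in mice, all averaged higher in iKO colon and none passed. Of 7 tested 7 were positive, with a median of 1.39 (Ang4 3.37 ± 0.94, adjusted p 0.432; Retnlb 3.53 ± 1.12, adjusted p 0.511; Pla2g2a 1.39 ± 0.46, adjusted p 0.529; Clca1 0.42 ± 0.14, adjusted p 0.526). In young ileum their median was 0.00, with 3 of 7 negative, and in aged ileum 0.29, with 2 of 7 negative. Cytokines, receptors and immune genes of the same loop had medians of 0.20, 0.01 and 0.26 in young ileum, aged ileum and colon, and none passed.

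Within groups most pairs of members varied in the same direction from array to array. Each array was expressed as its deviation from its own group mean, which removes the differences described so far. Of 28 pairs of members in colon 22 had a positive correlation (median 0.61), and of 21 pairs in ileum 16 did (median 0.38). On replicate 3 of young flox ileum all 7 members were above their group mean (mean deviation 0.29), and on replicate 4 of that group 6 of 7 were below (-0.35). On replicate 2 of aged iKO ileum, an array with high Car1, all 7 were below (-0.17). In colon all 8 members were above on flox replicate 4 (0.30), 7 of 8 on iKO replicate 1 and 6 of 8 on iKO replicate 4, while 6 of 8 were below on iKO replicate 2 (-0.40). Over all genes the share above the group mean on these arrays ran from 42.1% to 58.3%.

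**Figure D4:**
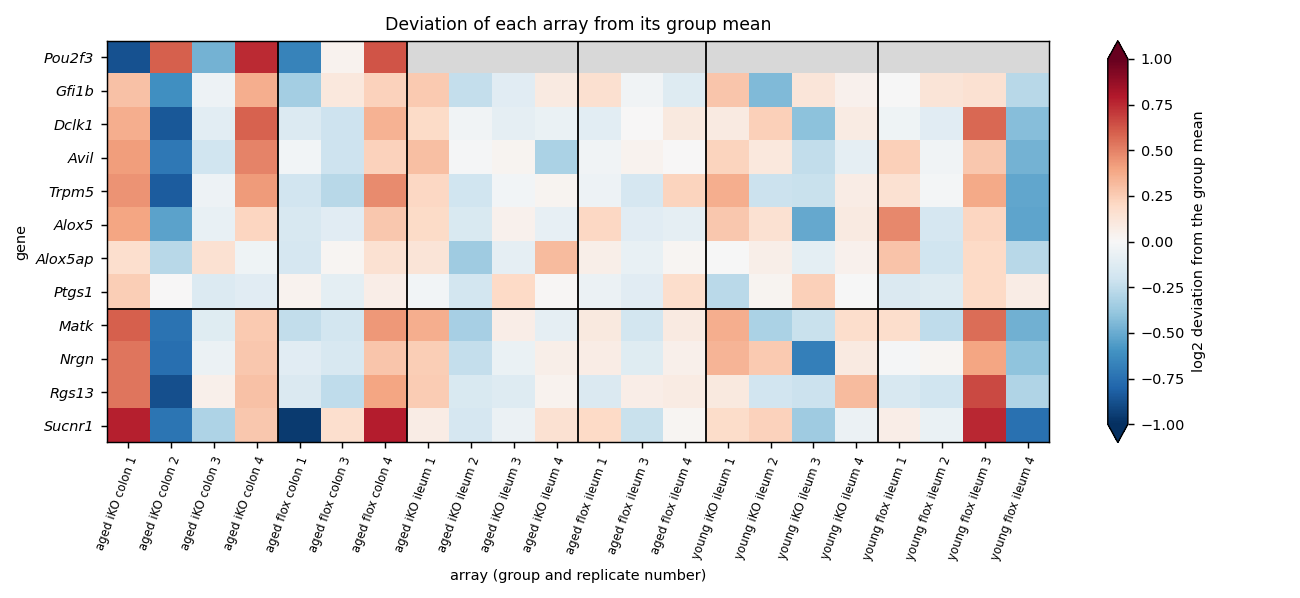
Deviation of each array from its group mean (log2, colour from blue below to red above, ends at 1) for the 8 tuft cell genes (upper rows) and 4 further tuft cell genes (lower rows), arrays ordered by group and replicate number; grey is not tested. Dclk1, Avil, Trpm5 and Alox5 share their red and blue arrays with the lower rows, and Pou2f3 and Ptgs1 share fewer of them.

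Pairs among Dclk1, Avil, Trpm5, Alox5 and Gfi1b had Pearson correlations of 0.87 to 0.98 over the 7 colon arrays. Dclk1 and Avil gave r = 0.98 (rho = 0.96), Dclk1 and Trpm5 0.98 (rho = 0.86), and Trpm5 and Alox5 0.98 (rho = 0.93). Leaving out the 2 arrays farthest out for the first gene left 0.94, 0.99 and 0.95. Pairs with Gfi1b loosened more, to 0.59 with Avil, 0.72 with Trpm5, 0.73 with Dclk1 and 0.82 with Alox5. In the 15 ileum arrays the same pairs were looser, led by Avil and Alox5 with r = 0.81 (rho = 0.72, 0.79 without 2 arrays), Dclk1 and Avil with 0.76 (rho = 0.74, 0.62 without 2 arrays) and Avil and Trpm5 with 0.72 (rho = 0.57, 0.68 without 2 arrays). Dclk1 and Trpm5 had r = 0.70 in ileum, which became 0.40 without 2 young flox arrays. Without both ileum arrays with high Car1, 15 of the 21 pairs were positive (median 0.46), and Avil and Alox5 gave 0.87. These are descriptions over 21 ileum and 28 colon pairs with no test, and the arrays compared share slides and tissue composition.

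Ptgs1 and Pou2f3 had lower correlations, which in colon turned on single arrays. Pou2f3 was well above background on only 5 of the 7 colon arrays, which limits its correlations. Ptgs1 correlated with the other ileum members between -0.37 and 0.09 and with the colon members other than Pou2f3 between 0.09 and 0.40, and Pou2f3 with the other colon members between -0.40 and 0.04. Without 2 colon arrays Ptgs1 reached 0.96 with Avil and 0.80 with Dclk1, against 0.30 and 0.17 over all 7, and stood at 0.43 with Gfi1b, 0.42 with Trpm5, 0.20 with Alox5 and -0.17 with Alox5ap, and Pou2f3 with Ptgs1 was 0.40, against -0.40 over all 7. Alox5ap stood between, with r = 0.66 to Alox5 and 0.61 to Trpm5 in ileum, and 0.79 and 0.75 in colon. The colon values became 0.39 and 0.35 without 2 arrays. Gfi1b followed Trpm5 in ileum (r = 0.64) and Dclk1 hardly at all (0.14).

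Ranking all genes by correlation with a member brought up other tuft cell genes. The 5 nearest to Trpm5 among 15477 genes over the ileum arrays included Matk (r = 0.919, rho = 0.868), a kinase related to Csk, and Trim11, Ptpa and Adgrg5. Matk stands in the wider tuft cell list, of which 24 genes were ranked. Without the 2 outermost arrays Trpm5 and Matk gave 0.875. Of the 24 listed genes 5 stood among the 100 nearest to Trpm5 (Matk, Sucnr1, Pik3r5, Nrgn and Rgs13), where the 100 are 0.646% of all genes. Alox5ap also had 5 of 24, Alox5 and Dclk1 had 3 each, and Avil, Gfi1b and Ptgs1 had 0. These counts use all 15 ileum arrays, and some of the pairs loosened without the 2 outermost arrays. Dclk1 with Sucnr1 went from 0.86 to 0.61, Alox5 with Nrgn from 0.80 to 0.53 and Alox5 with Matk from 0.73 to 0.65. Dclk1 with Nrgn held, from 0.86 to 0.85. Dclk1's 5 nearest were Strip2 (0.940), a cDNA with no symbol, Siglecf (0.909), a sialic acid-binding lectin known from eosinophils and tuft cells, Dlgap3 and Terf2.

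The other members had other neighbours in ileum. Avil's were Ubr4 (0.913), Upf1 (0.908), Kat7 and Bag6 with an unnamed transcript, broadly expressed genes, and Gfi1b's were Ctsz (0.902) and Zfp385b (0.854) with 3 unnamed transcripts. Ptgs1's were Kctd12b (0.936), Emcn (0.907), an endothelial sialomucin, Ppic, Cpxm2 and Pcsk6. Alox5's included Phf21a (0.894), and Alox5ap's highest r was 0.766, the lowest lead of the 7.

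Colon arrays, ranked in the same way after the ileum ranking had been seen, gave part of the same genes. Alox5 was nearest to Matk (r = 0.997, 0.995 without 2 arrays) and had Siglecf (0.995) and Nrgn (0.990) among its first 5, and 6 of 28 listed genes were among its 100 nearest, 0.513% of 19487 genes. Trpm5 had 5 of 28, Avil 4 and Dclk1 3, and Gfi1b, Alox5ap and Ptgs1 1 each and Pou2f3 0. Trpm5's first 5 included Siglecf (0.989), and Dclk1's nearest was AI836758 (0.997), a probe that today's annotation also gives to Dclk1. With 7 arrays in 2 groups high values are common: the gene at rank 100 for Trpm5 still had r = 0.918.

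**Figure D5:**
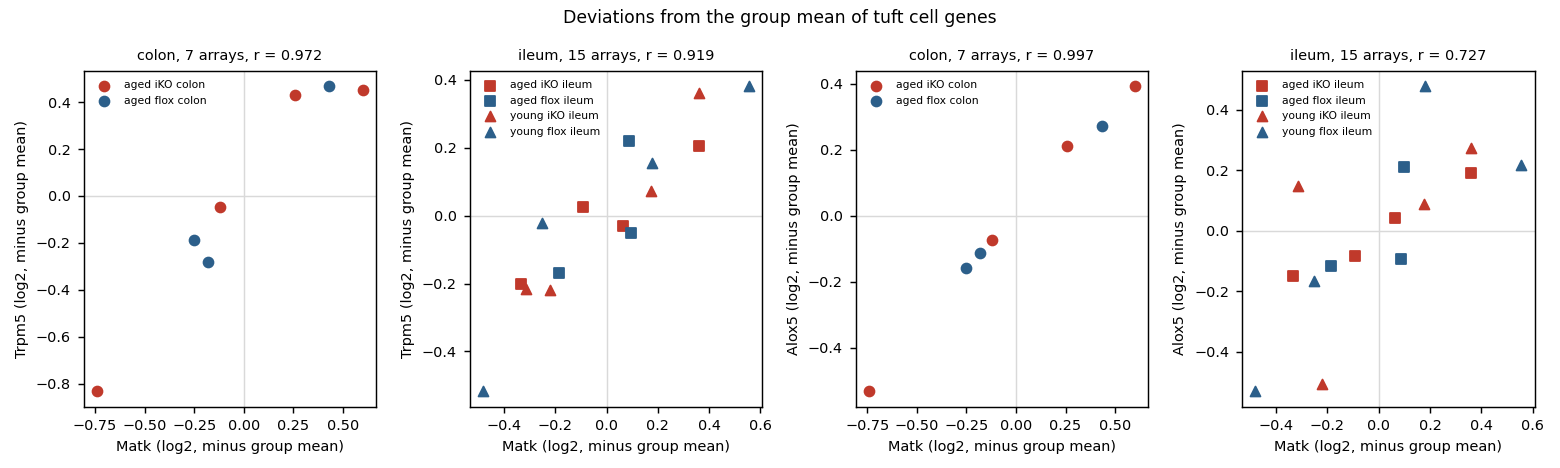
Deviation from the group mean of Trpm5 and of Alox5 against Matk (log2, both axes, 1 point per array), for colon and ileum; iKO in red, flox in blue, symbols mark age and tissue. Red and blue points are mixed along a rising trend in the Trpm5 panels, with r = 0.972 over 7 colon and 0.919 over 15 ileum arrays, and Alox5 with Matk is tighter in colon (0.997) than in ileum (0.727).

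Other cell types were set beside these correlations. The median r of Dclk1, Avil, Trpm5 and Alox5 with the wider tuft cell list was 0.52 to 0.67 in colon and 0.17 to 0.33 in ileum. With macrophage and granulocyte markers it was -0.37 to -0.24 in colon and -0.53 to -0.05 in ileum, and with neuron and glia markers 0.54 to 0.66 in colon and -0.25 to 0.09 in ileum. With endothelial markers it was 0.50 to 0.66 in colon and -0.37 to -0.08 in ileum. With enteroendocrine genes it was 0.09 to 0.22 in colon and 0.26 to 0.59 in ileum, and with general epithelial genes -0.38 to -0.19 in colon and 0.23 to 0.49 in ileum. With fat and pancreas genes it was 0.29 to 0.42 in colon, and in ileum 0.53 for Dclk1, 0.49 for Avil, 0.25 for Trpm5 and 0.60 for Alox5, above the values of the wider tuft cell list for all but Trpm5 (0.33, 0.17, 0.33 and 0.27). Enteroendocrine genes in ileum were also above that list for Dclk1 (0.43), Avil (0.59) and Trpm5 (0.43), but not Alox5 (0.26). In colon neuron and glia markers were above it for Dclk1 (0.62 against 0.52), Avil (0.66 against 0.52) and Trpm5 (0.66 against 0.58), but not Alox5 (0.54 against 0.67). Endothelial markers in colon were above it for Dclk1 (0.57) and Trpm5 (0.66), but not Avil or Alox5. Ptgs1 in ileum had a median r of 0.55 with endothelial and 0.63 with fibroblast markers. The part of these cells in the shared movement was not tested.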

How the data were processed

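Single-colour intensities came from the deposited scanner tables, which the submitters' processing notes credit to Feature Extraction 9.5; the authors' value table held the same processed intensity as the scanner tables and added no separate result. Levels are log2 of that deposited intensity minus the array's 75th percentile over non-control spots; control and outlier-flagged spots were left out and spots of a probe averaged. A gene is its brightest probe, tested if the scanner marked it well above background throughout 1 or more of the groups fitted. Groups were compared with limma 3.58.1 in R 4.3.3 (ileum, 15 arrays; colon, 7; aged ileum and colon, 14), with Benjamini-Hochberg adjustment over all genes tested, called under 0.05; the code was tested on simulated data. The number of arrays limits precision. The design text speaks of 3 to 4 mice per group; whether the tissues share animals is not given, so p-values measure the spread between these samples. Members, gene lists and tests were chosen with earlier results of these data known. Named genes were all members, Sirt1, and from each list those that passed or else those of smallest p; the genes most like a member were the 5 with the highest Pearson r of deviations from group means. Colon likeness, Siglecf and leaving out 2 aged ileum arrays together were chosen after seeing the data. Alternatives were background correction, normalization, filter, probe rule, slide and position terms, replicate block and leaving out each array. One gene of the wider tuft cell list is not reported here.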

Additional observations from a re-analysis of the deposited data

How the results depend on the processing

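No member passed in any genotype comparison under any alternative (19 in young ileum, 19 in aged ileum and 17 in colon). Of 1256 single-member values under alternatives, 1183 kept direction and call, 44 changed sign, 9 gained and 20 lost a call; the cause was not tested. In aged ileum Dclk1 was 0.072 with normexp and 0.22 with slide as a term, and Avil 0.090 with slide and 0.045 with position as a term; in colon Dclk1 was -0.11 averaged over probes and -0.044 with slide; with age in flox ileum Dclk1 was -0.044 with normexp and -0.10 with slide, and Trpm5 0.034 with normexp. The genotype by age term of Dclk1 was -0.039 averaged over probes, its genotype by tissue term -0.0062 with normexp, and Pou2f3 between tissues in iKO mice 0.075 after quantile normalization. Leaving out both aged ileum arrays with high Car1 and Aqp8 gave Alox5ap 0.024 in aged ileum, Trpm5 0.024 with age in flox ileum and Ptgs1 -0.013 between tissues in iKO mice, and 556 genes called with age in flox and 1095 in iKO ileum. Not every same-numbered pair of samples correlated above 0.1 in its deviations (-0.36 to 0.37 in ileum and -0.12 to 0.10 in colon), so the numbers were not taken as pairing. In ileum 14 of 21 same-numbered pairs did, against 12 of 63 others, a hint from the data. Over the aged arrays of both tissues the same-numbered pairs ran from -0.22 to 0.12, and 3 of 19 were above 0.1, against 6 of 54 others. Aged flox ileum and aged flox colon both held replicates 1, 3 and 4, and the fit between tissues took its 14 arrays as independent. With a replicate block 1 member (Ptgs1) passed with age in iKO ileum, as 1 did with a trended robust variance, against 0. Between tissues the count of members called was 1 under a stricter filter in flox mice, and in iKO mice 1 with normexp, 1 without both of those ileum arrays and 0 with only the groups compared, against 2 in each (in flox mice Alox5ap and the undetected Pou2f3). Leaving out each array gave counts of 1 to 2 in flox and 0 to 2 in iKO mice. It also gave, in aged ileum, Avil -0.14 to 0.062 and Ptgs1 -0.11 to 0.042; in colon Dclk1 -0.12 to 0.36; with age in flox ileum Avil -0.012 to 0.24, Dclk1 -0.077 to 0.26 and Trpm5 -0.17 to 0.13; for genotype by age Ptgs1 -0.012 to 0.16; between tissues Dclk1 -0.0044 to 0.27 in flox mice and Avil -0.25 to 0.15, Pou2f3 -0.26 to 0.28 and Ptgs1 -0.033 to 0.12 in iKO mice; and for genotype by tissue Dclk1 -0.060 to 0.42 and Gfi1b -0.21 to 0.16. Over all genes and settings, single arrays left out included, the counts called ran from 3 to 14 in young ileum (7 as reported), 5 to 36 in aged ileum (26), 1 to 48 in colon (22), 399 to 1511 with age in flox (1323) and 637 to 1834 in iKO ileum (1664), 0 to 1 for genotype by age (0), 4414 to 10906 between tissues in flox (6460) and 6995 to 13447 in iKO mice (8559), and 2 to 9 for genotype by tissue (7). Normexp moved the tissue median of all genes to -0.07 in iKO and -0.05 in flox mice, against 0.07 and 0.08 as reported, and the split of higher and lower calls to 3453 and 4580 in iKO (4752 and 3807 as reported) and 2944 and 3632 in flox mice (3760 and 2700). Quantile normalization made the age split 835 and 569 in iKO (799 and 865 as reported) and 452 and 431 in flox ileum (492 and 831). Pou2f3 in ileum is limited by signal over background.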
